A study of Mus musculus with 6 samples.

Results

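Small leucine-rich proteoglycans are secreted matrix proteins, and 9 of their genes are described here in mouse bone marrow stromal cells (BMSCs) that differentiated towards osteoblasts for 7 days. The genes were taken by symbol from a table of 56691 genes: Bgn, Dcn and Aspn of class I, Fmod, Lum, Prelp and Omd of class II, Ogn of class III and Podn of class V. One group of 3 samples received medium conditioned by the mouse hepatoma line Hepa 1-6, and the other 3 samples received control medium. All samples were labelled wild type (WT) and shared the same osteogenic medium, α-MEM with 10% FBS, ascorbic acid at 50 µg/ml and β-glycerophosphate at 1.08 mg/ml, replaced every 2 days. The labels give no strain, age or sex of the mice and do not say whether the control medium had been conditioned by other cells, so factors of the hepatoma cells and conditioning as such cannot be told apart. They also do not say whether the samples of a group were separate cultures or animals, so p-values speak to sample-to-sample spread alone, and that spread could be technical.

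The core protein of this family is a curved run of leucine-rich repeats that docks onto collagen. In bone, tendon and skin these proteins sit on collagen fibrils and set how thick and how regular the fibrils grow. Many carry chondroitin, dermatan or keratan sulfate chains, several hold TGF-β or BMP ligands in the matrix, and soluble biglycan and decorin can signal through Toll-like receptors.

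Each library held between 18661629 and 21329475 counts. Levels are given as FPKM, a read count scaled to exonic length and to the library's total, so that genes of different length can be compared. Folds and calls come from edgeR's quasi-likelihood test on the counts of 12153 genes with a mean of at least 1 FPKM, where a gene was called at a Benjamini-Hochberg adjusted p under 0.05. Log2 fold changes are conditioned over control medium, with their standard error (SE). Of all genes tested, 45.9% were called, 23.0% as higher and 22.9% as lower in conditioned medium, and the median log2 fold change was -0.0028. The 9 genes were chosen by symbol with their difference in counts and FPKM between these media already known, so their values and calls are a description and no p-value is given for them.

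Osteoblast markers were checked first. Of 14 markers, 9 passed the expression filter, of which 8 were called lower and 0 higher by edgeR, with a median log2 fold change of -0.58. Their summed level lay between 659 and 711 FPKM in conditioned medium and between 824 and 911 FPKM in control medium. Ibsp, the bone sialoprotein gene, fell to 1.94 ± 0.770 FPKM in conditioned medium, against 19.9 ± 2.58 FPKM in control medium (log2 fold change -3.33 ± 0.15, adjusted p = 7.9e-14). Ibsp was named after its values were seen and had the largest change among the 9 tested markers. Bglap, the osteocalcin gene of mature osteoblasts, had 2 counts in conditioned medium and 2 in control medium. Of 14 tested mesenchymal stromal markers, 7 were called higher and 5 lower (median 0.21), and they summed to 1872 to 1907 FPKM in conditioned medium and 2125 to 2299 FPKM in control medium. The cultures also held macrophage RNA. All 18 macrophage markers were tested, 4 were called higher and 12 lower (median -0.48), and they summed to 6918 to 7641 FPKM in conditioned medium and 9614 to 11013 FPKM in control medium. These 3 sums weigh the most abundant gene of each list most, so they are no measure of a cell type. Col1a1 was at 641 FPKM in conditioned medium and 793 FPKM in control medium. Fn1, of the mesenchymal list, was at 708 and 1021 FPKM, and the macrophage gene Lyz2 at 4571 and 6683 FPKM. In these bulk samples, fewer cells of a type and less RNA per cell cannot be told apart, and the part of these marker differences in the values below was not tested.

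In both media the family was dominated by biglycan and osteoglycin. Bgn, which encodes biglycan, a proteoglycan with chondroitin or dermatan sulfate chains that is abundant in bone matrix, was at 336, 338 and 334 FPKM in conditioned medium and at 390, 397 and 388 FPKM in control medium. Its level in control medium exceeded that of 99.5% of the tested genes. The groups of Bgn did not overlap, yet the difference was small beside that of other members, with a log2 fold change of -0.20 ± 0.035. Ogn, which encodes osteoglycin, a protein first purified from bone and also called mimecan, was at 212, 208 and 214 FPKM in conditioned medium and at 212, 224 and 220 FPKM in control medium. The groups of Ogn overlapped, and the log2 fold change of -0.035 ± 0.041 was smaller than its SE. Ogn was the 1 member that was tested and not called.

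Fibromodulin and asporin followed in abundance, and both were far lower in conditioned medium. Fmod, which encodes fibromodulin, a keratan sulfate proteoglycan that steers collagen fibril growth in tendon and bone, was at 41.9, 41.1 and 38.7 FPKM in conditioned medium and at 111, 111 and 113 FPKM in control medium. Replicates lay close together, and the log2 fold change was -1.45 ± 0.044. Aspn, which encodes asporin, a class I member without glycosaminoglycan chains that binds collagen and restrains TGF-β and BMP signals, was at 25.6, 21.0 and 19.9 FPKM in conditioned medium and at 95.8, 101 and 92.6 FPKM in control medium. Conditioned medium sample 1 was the highest of its group, but every conditioned medium sample lay far below every control medium sample. The log2 fold change of Aspn, -2.11 ± 0.067 or 23.2% of the control level, took rank 43 from the lowest among all genes tested.

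Prelp and Omd, of the same class as Fmod, were lower too. Prelp, whose protein PRELP links basement membranes to the collagen beneath them, was at 16.4, 14.99 and 14.8 FPKM in conditioned medium and at 34.1, 36.8 and 39.7 FPKM in control medium, a log2 fold change of -1.25 ± 0.059. Omd, which encodes osteomodulin or osteoadherin, a keratan sulfate proteoglycan of mineralised tissue that binds cells and hydroxyapatite, was at 4.21, 4.01 and 3.54 FPKM in conditioned medium and at 11.8, 11.5 and 10.6 FPKM in control medium. Neither gene's groups overlapped. Podn, which encodes podocan, a class V member that binds type I collagen, was at 0.940, 0.970 and 0.980 FPKM in conditioned medium and at 1.84, 2.12 and 2.15 FPKM in control medium. It passed the expression filter through its control level, since its mean in conditioned medium was 0.963 FPKM. Its log2 fold change was -1.07 ± 0.14, and -0.63 on the log2(FPKM + 1) scale with limma, which understates changes of low genes.

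Decorin and lumican, major members in skin, tendon and cornea, were low in both media, and were the 2 of the 9 with higher levels in conditioned medium. Dcn, the decorin gene, was at 1.9, 2.37 and 2.21 FPKM in conditioned medium and at 0.470, 0.510 and 0.590 FPKM in control medium. On counts, that was 770 reads over the conditioned medium libraries and 184 over the control libraries. The groups did not overlap, and the log2 fold change was 2.05 ± 0.14, or 1.05 on the log2(FPKM + 1) scale with limma. Dcn passed the filter only through conditioned medium, so among tested genes it had to differ. Lum, the lumican gene, was at 0.710, 0.340 and 0.540 FPKM in conditioned medium and at 0.150, 0.120 and 0.220 FPKM in control medium. It lay below the filter. Its 80 counts in conditioned medium and 24 in control medium gave a ratio of 3.26 scaled by library size, with an exact 95% interval of 2.04 to 5.37 that covers counting error only. Without the filter its fitted log2 fold change was 1.70 ± 0.40.

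**Figure D1:**
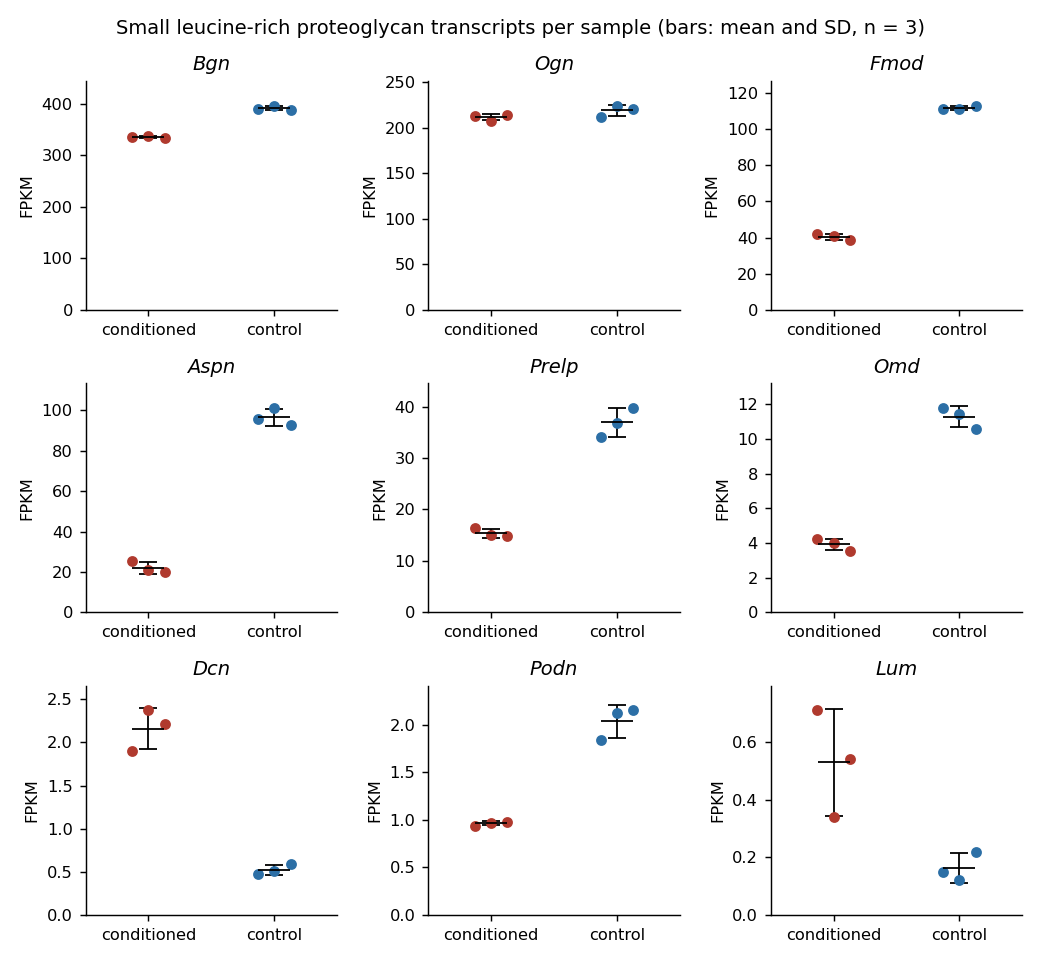
FPKM of each of the 9 genes in the 3 conditioned medium samples (left, red) and the 3 control medium samples (right, blue), each panel on its own linear axis from 0, with the mean and SD as black bars. Fmod, Aspn, Prelp, Omd and Podn are lower in every conditioned medium sample, Dcn and Lum are higher there at low levels, and Ogn overlaps between the media.

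Counted together, 7 of the 8 members that passed the filter were called, 1 as higher and 6 as lower. Of all genes tested 45.9% were called either way, and nothing is read from the members' count, since the comparison of the media was known when they were chosen. The FPKM of the media did not overlap in 53.2% of the tested genes, and in 7 of the 8 tested members, all but Ogn. Lum, which was not tested, did not overlap either. Of all genes tested, 2.18% were called and at least 2-fold lower; Aspn, Omd, Fmod, Prelp and Podn were among these. Another 3.10% were called and at least 2-fold higher, and Dcn was among these. Dcn and Podn passed the filter only through the medium where each was higher, so nothing is read from their place here. Leaving out any single sample kept the calls of 7 members, and the log2 fold change of Aspn then lay between -2.22 and -2.03, that of Fmod between -1.47 and -1.42 and that of Dcn between 1.97 and 2.15.

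The order of levels was nearly kept between media. In conditioned medium it ran from Bgn at 336 ± 2.18 FPKM through Ogn at 212 ± 3.27, Fmod at 40.5 ± 1.66, Aspn at 22.2 ± 3.01, Prelp at 15.4 ± 0.867, Omd at 3.92 ± 0.344, Dcn at 2.16 ± 0.239 and Podn at 0.963 ± 0.0208 to Lum at 0.530 ± 0.185 FPKM (mean ± SD, n = 3). In control medium the order was Bgn at 392 ± 4.48 FPKM, Ogn at 219 ± 6.15, Fmod at 112 ± 1.02, Aspn at 96.5 ± 4.34, Prelp at 36.9 ± 2.78, Omd at 11.3 ± 0.614, Podn at 2.04 ± 0.171, Dcn at 0.523 ± 0.0611 and Lum at 0.163 ± 0.0513 FPKM. Dcn and Podn changed places, and no neighbours in either order overlapped between samples. Biglycan transcripts outnumbered decorin transcripts per length 157 ± 17.9 to 1 in conditioned medium and 755 ± 88.8 to 1 in control medium.

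The make-up of the family therefore differed between the media. The 9 genes summed to 633 ± 6.22 FPKM in conditioned medium and 870 ± 13.2 FPKM in control medium. Bgn made up 53.1 ± 0.545% of that sum in conditioned medium and 45.0 ± 0.409% in control medium. Ogn made up 33.4 ± 0.593% in conditioned medium and 25.2 ± 0.380% in control medium. Bgn and Ogn held larger shares in conditioned medium although neither gene had a higher level there. Fmod made up 6.40 ± 0.216% in conditioned medium and 12.9 ± 0.254% in control medium, and Aspn 3.50 ± 0.438% in conditioned medium and 11.1 ± 0.386% in control medium. Prelp held 2.43 ± 0.113% in conditioned medium and 4.24 ± 0.308% in control medium. Omd, Dcn, Podn and Lum together stayed small, the largest of their shares being 1.30 ± 0.0755% for Omd in control medium.

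**Figure D2:**
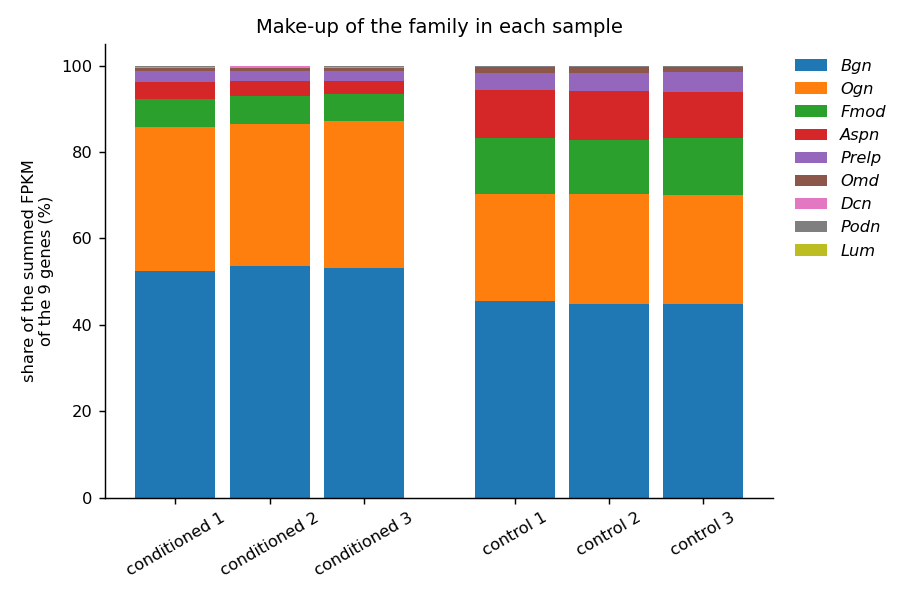
Share of each gene in the summed FPKM of the 9 genes, as stacked bars from 0 to the full sum, for the 3 conditioned medium samples (left) and the 3 control medium samples (right). Bgn and Ogn hold more of the sum in conditioned medium, and Fmod and Aspn hold less.

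Most of the family lies in 3 clusters of neighbouring genes, which allowed members of 1 cluster to be compared (positions are those of whole genes in the deposited table, GRCm39). On chromosome 13, plus strand, Aspn lies at 49697919 to 49721041, Omd at 49735938 to 49746298 and Ogn at 49761522 to 49777977. On chromosome 1, Prelp lies at 133838042 to 133849152 on the minus strand and Fmod at 133964992 to 133976015 on the plus strand. On chromosome 10, Dcn lies at 97315471 to 97354005 and Lum at 97400990 to 97408565, both on the plus strand. Bgn lies on chromosome X at 72527208 to 72539539 on the plus strand, and Podn on chromosome 4 at 107871988 to 107953642 on the minus strand.

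Neighbours on chromosome 13 differed from each other. Ecm2, the next gene of the family before Aspn, fell to 0.990 ± 0.101 FPKM in conditioned medium, against 1.62 ± 0.0902 FPKM in control medium (log2 fold change -0.71 ± 0.13, adjusted p = 1.2e-04). Ecm2 passed the expression filter only through its control level, so its call is a description. Aspn, Omd and Ogn follow Ecm2 with gaps of 11.7, 14.9 and 15.2 kb, and their log2 fold changes were -2.11, -1.51 and -0.035. Within a sample, the level of Aspn over that of Ogn was 0.120, 0.101 and 0.0930 in conditioned medium and 0.451, 0.451 and 0.420 in control medium. Omd over Ogn was 0.0198, 0.0193 and 0.0165 in conditioned medium and 0.0555, 0.0511 and 0.0481 in control medium. Both ratios were lower in every conditioned medium sample than in any control medium sample. The gene after Ogn, Nol8, which encodes a nucleolar protein, was at 5.32 ± 0.256 FPKM in conditioned medium and 5.23 ± 0.201 FPKM in control medium (adjusted p = 0.61). Cenpp, a centromere protein gene, overlaps Aspn, Omd and Ogn on the opposite strand and was at 1.13 ± 0.121 FPKM in conditioned medium and 1.64 ± 0.0643 FPKM in control medium. In the GENCODE vM21 annotation (GRCm38) its exons shared 7 of the 2354 exon bases of Aspn and none of Omd or Ogn.

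On chromosome 1, Prelp and Fmod moved alike. Fmod over Prelp was 2.56, 2.74 and 2.62 in conditioned medium and 3.26, 3.02 and 2.85 in control medium, a small difference, although the media did not overlap. Optc, which encodes opticin of the eye, lies 2.30 kb from Prelp and had 38 counts in conditioned medium and 33 in control medium. Btg2, an antiproliferative gene on the other side of Fmod, was at 26.0 ± 0.284 FPKM in conditioned medium and 29.2 ± 1.33 FPKM in control medium (log2 fold change -0.15 ± 0.050, adjusted p = 0.017, and 0.0069 to 0.091 over the alternatives). The predicted gene Gm15851 shares 350 of the 3615 exon bases of Prelp on the other strand in GENCODE vM21, and had 4 counts in conditioned medium and 19 in control medium. On chromosome 10, Kera and Epyc, the cornea and cartilage members after Lum, had 0 counts in all 6 libraries. Btg1, an antiproliferative gene and the nearest protein-coding neighbour before Dcn at 857 kb, rose to 32.5 ± 0.502 FPKM in conditioned medium, against 17.0 ± 1.35 FPKM in control medium (adjusted p = 1.6e-12).

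Haus7, a spindle gene beside Bgn, fell to 7.15 ± 0.680 FPKM in conditioned medium, against 10.3 ± 0.753 FPKM in control medium (adjusted p = 3.6e-04), and Atp2b3 on the other side lay below the filter. Echdc2, beside Podn, was at 2.15 ± 0.244 FPKM in conditioned medium and 2.37 ± 0.332 FPKM in control medium (adjusted p = 0.57), and Slc1a7 had 0 counts in either group. Podn also overlaps Scp2 on the same strand, without shared exon bases in GENCODE vM21.

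**Figure D3:**
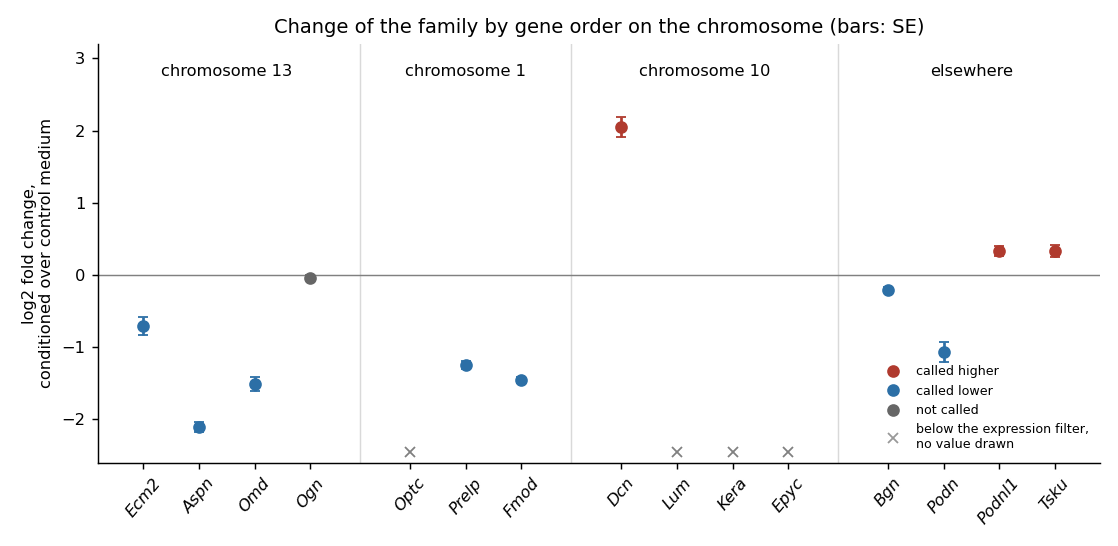
Log2 fold change, conditioned over control medium, with SE, of family genes in their order on chromosomes 13, 1 and 10, and of 4 genes elsewhere; red was called higher, blue lower, grey not called, and a cross at the bottom marks a gene below the expression filter. Ogn lies near 0 beside Omd and Aspn at -1.51 and -2.11.

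Because neighbouring members differed, their promoters are shown, from 250 bases before to 50 after the start, as RefSeq gives them for GRCm38.p6 (5′ to 3′ along the gene). The table matched 7 of the 9 genes. The windows of 6 are printed, those in the clusters on chromosomes 13 and 1 and that of the most abundant gene, Bgn; Podn was searched but is not printed, and Dcn and Lum are named only. Capitals mark every match, on either strand, of 9 short motifs. These were the TATA box as TATAAA, the RUNX motif as TGTGGT, the AP-1 motif as TGANTCA, the C/EBP motif as TTGCNNCAA and the STAT motif as TTCNNNGAA. The SMAD box was searched as CAGACA, the GC box as GGGCGG, the MEF2 motif as TATTTATA, within which each match also holds a TATA box match, and NF-kB by a motif named only.
Aspn, chr13:49544193-49544492, plus strand: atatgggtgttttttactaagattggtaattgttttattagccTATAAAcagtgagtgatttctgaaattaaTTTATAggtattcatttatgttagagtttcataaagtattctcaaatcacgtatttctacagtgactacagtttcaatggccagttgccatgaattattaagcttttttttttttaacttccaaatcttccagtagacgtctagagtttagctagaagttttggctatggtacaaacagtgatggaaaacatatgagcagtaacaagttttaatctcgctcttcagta
Omd, chr13:49582212-49582511, plus strand: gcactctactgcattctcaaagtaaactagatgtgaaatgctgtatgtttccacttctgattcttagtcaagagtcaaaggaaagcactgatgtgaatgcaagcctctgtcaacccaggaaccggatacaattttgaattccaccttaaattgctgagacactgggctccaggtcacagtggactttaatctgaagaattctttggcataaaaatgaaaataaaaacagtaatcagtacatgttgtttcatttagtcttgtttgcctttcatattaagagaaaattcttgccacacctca
Ogn, chr13:49607765-49608064, plus strand: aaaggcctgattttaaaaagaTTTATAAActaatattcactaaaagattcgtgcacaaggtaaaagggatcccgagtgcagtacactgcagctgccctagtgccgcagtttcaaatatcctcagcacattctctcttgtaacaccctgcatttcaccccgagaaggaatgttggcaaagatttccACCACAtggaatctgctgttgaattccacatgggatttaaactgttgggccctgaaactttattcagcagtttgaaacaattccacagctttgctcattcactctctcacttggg
Prelp, chr1:133921352-133921651, minus strand: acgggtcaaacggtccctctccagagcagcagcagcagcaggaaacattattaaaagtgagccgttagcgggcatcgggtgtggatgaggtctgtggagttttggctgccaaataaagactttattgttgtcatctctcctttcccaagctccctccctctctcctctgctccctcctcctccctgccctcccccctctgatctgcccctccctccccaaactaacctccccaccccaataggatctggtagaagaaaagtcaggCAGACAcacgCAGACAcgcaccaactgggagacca
Fmod, chr1:134037004-134037303, plus strand: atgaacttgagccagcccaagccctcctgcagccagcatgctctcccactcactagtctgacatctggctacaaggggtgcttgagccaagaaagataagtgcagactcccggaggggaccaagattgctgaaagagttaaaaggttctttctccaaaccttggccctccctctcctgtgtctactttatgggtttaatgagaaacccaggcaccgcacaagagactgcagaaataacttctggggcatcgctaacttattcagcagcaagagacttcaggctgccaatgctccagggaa
Bgn, chrX:73483351-73483650, plus strand: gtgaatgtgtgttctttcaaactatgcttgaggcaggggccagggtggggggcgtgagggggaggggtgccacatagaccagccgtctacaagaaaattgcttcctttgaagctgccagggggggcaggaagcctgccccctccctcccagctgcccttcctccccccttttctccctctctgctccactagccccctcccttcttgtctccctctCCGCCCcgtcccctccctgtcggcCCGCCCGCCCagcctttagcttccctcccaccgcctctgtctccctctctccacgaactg

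These windows had little in common. Those of Aspn and Ogn held TATAAA, at -207 to -202 and on the other strand at -178 to -173 in Aspn, and as an overlapping pair between -229 and -222 in Ogn, far from the start. TATAAA was found in 13.6% of all 32851 promoters of the table. Ogn alone among the 7 held TGTGGT, at -65 to -60 on the minus strand, a match found in 16.8% of all promoters. Prelp held CAGACA, at 16 to 21 and at 26 to 31, found in 21.0% of all promoters, and Bgn held 3 matches of GGGCGG between -34 and -1, of which 2 overlap, found in 35.7%. Podn, with 2 windows in the table, held the GC box, the SMAD box and the NF-kB motif, the last found in 20.7% of all promoters. No match was found in Omd or Fmod. None of the 7 held the AP-1, C/EBP, STAT or MEF2 letters, which were found in 7.81%, 2.08%, 8.30% and 1.70% of all promoters. GC content was 31.0% in Aspn, 37.7% in Omd, 42.3% in Ogn, 51.0% in Fmod, 55.3% in Prelp and 63.7% in Bgn. It was 77.0% and 63.0% in the windows of Podn, and the median of all promoters was 52.7%.

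Annotation placed all 9 genes in the extracellular space and 5 of them in the extracellular matrix in the deposited table. Collagen binding was assigned to Aspn, Dcn, Lum and Podn, and the TGF-β signalling pathway to Dcn and Fmod.

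Of the other 8 genes of the family, 3 passed the filter. Podnl1 and Tsku were called higher. Ecm2 was called lower, but it passed the filter only through its control level. Podnl1, a podocan-like gene, rose to 7.36 ± 0.337 FPKM in conditioned medium, against 5.92 ± 0.0153 FPKM in control medium (log2 fold change 0.33 ± 0.071, adjusted p = 7.0e-04). Tsku, which encodes tsukushi, a secreted BMP and Wnt modulator, rose to 6.35 ± 0.131 FPKM in conditioned medium, against 5.10 ± 0.220 FPKM in control medium (adjusted p = 0.0019). Chad, Nyx, Optc, Kera and Epyc lay below the filter with at most 38 counts in a group.

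By pattern over the 6 samples, the genes most like Aspn in log2 CPM were Pltp, the phospholipid transfer protein gene, Stk17b and Abhd12, with Pearson correlations of 0.9997, 0.9993 and 0.9992. Pltp was at 8.84 ± 0.963 FPKM in conditioned medium and 31.0 ± 1.63 FPKM in control medium. The genes most like Dcn were Cemip2, Gzmb and Akap12, with correlations of 0.9997, 0.9996 and 0.9986. These correlations are a description, and they rest mainly on the difference between the media that all of these genes share.

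Enzymes that build the sugar chains of these proteins moved in both directions. Of 20 tested chondroitin and dermatan sulfate enzymes, 3 rose and 7 fell, with a median log2 fold change of -0.0036 against -0.0028 over all genes. These 10 calls among 20 genes are near the share over all genes tested, of which 45.9% were called. Chst15, which adds a further sulfate to chondroitin 4-sulfate, rose to 3.82 ± 0.0557 FPKM in conditioned medium, against 1.71 ± 0.280 FPKM in control medium (log2 fold change 1.17 ± 0.096, adjusted p = 1.7e-09), and the chondroitin 4-sulfotransferase gene Chst11 rose to 6.91 ± 0.417 FPKM, against 3.61 ± 0.316 FPKM. Chsy3, a chondroitin synthase gene, fell to 1.15 ± 0.157 FPKM in conditioned medium, against 2.31 ± 0.0551 FPKM in control medium (adjusted p = 9.8e-08). The xylosyltransferase genes Xylt1 and Xylt2, whose products start the chain, fell by 0.90 and 0.52 on the log2 scale, and Ust, which sulfates uronic acid, fell by 0.88. B4galt7, B3galt6, B3gat3 and Fam20b, listed for the link of chain to protein, were not called (0.095, -0.21, 0.13 and 0.013). Chsy1 rose by 0.13 (adjusted p = 0.030), a call lost under 7 of 14 alternatives (adjusted p 0.025 to 0.14 over all 14). Of 6 tested keratan sulfate and tyrosine sulfation enzymes, 2 rose and 2 fell (median 0.060), beside 23.0% called higher and 22.9% lower over all genes tested. B4galt4 changed by -0.41 ± 0.12 (adjusted p = 0.0093). Chst2 changed by 0.36 ± 0.099 and Tpst1, a tyrosine sulfotransferase gene, by -0.30 ± 0.085, with adjusted p-values of 0.0054 and 0.0059; over the alternatives these ran from 0.0014 to 0.060 and from 0.0037 to 0.052. The number of calls in this list was 2 without conditioned medium sample 1 or without sample 2, against 4 with all samples.

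The collagens to which these proteins bind were mostly lower. Of 15 tested fibril collagens and partners, 2 rose and 10 fell (median -0.29), beside 23.0% called higher and 22.9% lower over all genes tested. Col11a1, a minor chain that nucleates fibrils, fell to 36.2 ± 1.30 FPKM in conditioned medium, against 72.0 ± 2.51 FPKM in control medium (log2 fold change -0.97 ± 0.043, adjusted p = 5.9e-14). Col5a3 fell by 0.90 and the fibril-associated collagen gene Col12a1 by 0.87 on the log2 scale. Col3a1 and the lysyl oxidase-like gene Loxl1 rose by 0.15 and 0.52. Col1a1 and Col1a2, the chains of type I collagen, fell by 0.29 and 0.28. The tendon genes Scx and Tnmd, of a marker list with 1 of 5 tested genes called higher and 2 lower, changed by -1.22 and -1.78. Mkx of that list rose by 0.88, and Egr1 and Tnc were not called (-0.035 and -0.022). The list summed to 147 to 156 FPKM in conditioned medium and 155 to 169 FPKM in control medium. Most of that sum was Tnc, at 136 FPKM in conditioned medium and 140 FPKM in control medium. The cartilage matrix gene Comp changed by -3.42. It passed the filter only through control medium, at 0.350 FPKM in conditioned medium and 3.89 FPKM in control medium. In its chondrocyte list, 0 of 4 tested genes were called higher and 2 lower (median 0.0084). Col2a1 of that list changed by -0.12 and was called lower, Sox9 and Col10a1 were not called (0.13 and 0.19), and Col9a1 and Snorc had 0 counts. The chondrocyte list summed to 24.8 to 26.0 FPKM in conditioned medium and 29.3 to 31.0 FPKM in control medium.

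Proteases that can act on the family, and their inhibitors, were mostly higher. Of 17 tested, 11 rose and 2 fell (median 0.31), beside 23.0% called higher and 22.9% lower over all genes tested. The neutrophil collagenase gene Mmp8 rose to 84.3 ± 4.56 FPKM in conditioned medium, against 2.91 ± 0.405 FPKM in control medium (log2 fold change 4.87 ± 0.075, adjusted p = 1.2e-21). Mmp9 rose by 3.35 ± 0.11 and the macrophage elastase gene Mmp12 by 1.88 ± 0.050. Mmp9 passed the filter only through conditioned medium, since its control level was 0.690 FPKM. Mmp13, whose collagenase can cleave fibromodulin, rose by 1.32, the aggrecanase genes Adamts4 and Adamts5 by 0.33 and 0.48, and Bmp1, whose product trims the biglycan propeptide, by 0.31. The inhibitor genes were divided. Timp1 rose to 338 ± 4.03 FPKM in conditioned medium, against 129.8 ± 15.1 FPKM in control medium, and Timp3 rose by 0.26, while Timp2 fell by 0.55. The serine protease gene Htra1 fell by 0.28.

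Ligands and receptors of the family were divided. Of 21 tested genes, 8 rose and 10 fell (median -0.015), beside 23.0% called higher and 22.9% lower over all genes tested. Tgfbr1, a TGF-β receptor gene, fell to 12.96 ± 0.802 FPKM in conditioned medium, against 38.7 ± 1.98 FPKM in control medium (log2 fold change -1.56 ± 0.053, adjusted p = 7.8e-16). Tgfbr2 changed by -0.60, Tgfb3 by -0.28, and Pdgfb by -1.18, all called lower. Ccn4, which encodes WISP1, fell to 34.8 ± 1.86 FPKM in conditioned medium, against 70.5 ± 3.35 FPKM in control medium. The ligand gene Tgfb1 was at 27.6 ± 0.755 FPKM in conditioned medium and 26.8 ± 0.335 FPKM in control medium (adjusted p = 0.28). The Toll-like receptor genes that biglycan can engage rose, Tlr2 by 0.44 ± 0.044 and Tlr4 by 0.53 ± 0.047, as did their co-receptor gene Cd14, also a macrophage marker here, by 0.66 ± 0.053. These receptors are known from macrophages, of whose 18 markers 12 were called lower and 4 higher, and the part of that difference in these values was not tested. Met, the hepatocyte growth factor receptor gene and a decorin target, rose to 14.6 ± 0.236 FPKM in conditioned medium, against 4.53 ± 0.536 FPKM in control medium. Cd44 and Igf1r rose by 0.20 and 0.22. P2rx4 and Pdgfa rose by 0.13 and 0.19 (adjusted p = 0.041 and 0.042), calls that were each lost under 9 of 14 alternatives, with adjusted p-values of 0.0017 to 0.22 and of 0.015 to 0.19.

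Other proteoglycan core proteins rose more often than they fell, with 8 of 15 tested genes up and 5 down (median 0.22). Over all genes tested, 23.0% were called higher and 22.9% lower. Srgn, which encodes serglycin, the granule proteoglycan of blood cells, rose to 78.9 ± 2.05 FPKM in conditioned medium, against 12.3 ± 1.28 FPKM in control medium (log2 fold change 2.70 ± 0.061, adjusted p = 6.1e-19). The syndecan gene Sdc4 rose to 129 ± 1.25 FPKM in conditioned medium, against 40.3 ± 1.68 FPKM in control medium, and Tgfbr3, the betaglycan gene, by 1.29 on the log2 scale. The versican gene Vcan rose by 1.19. Col18a1, Sdc2, Gpc1 and Gpc6 fell by 0.93, 0.30, 0.44 and 0.28. Hspg2, the perlecan gene, changed by -0.19 (adjusted p = 0.039), a call lost under 7 of 14 alternatives (adjusted p 6.7e-05 to 0.31 over all 14). Without control medium sample 3 its log2 fold change was -0.042.

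**Figure D4:**
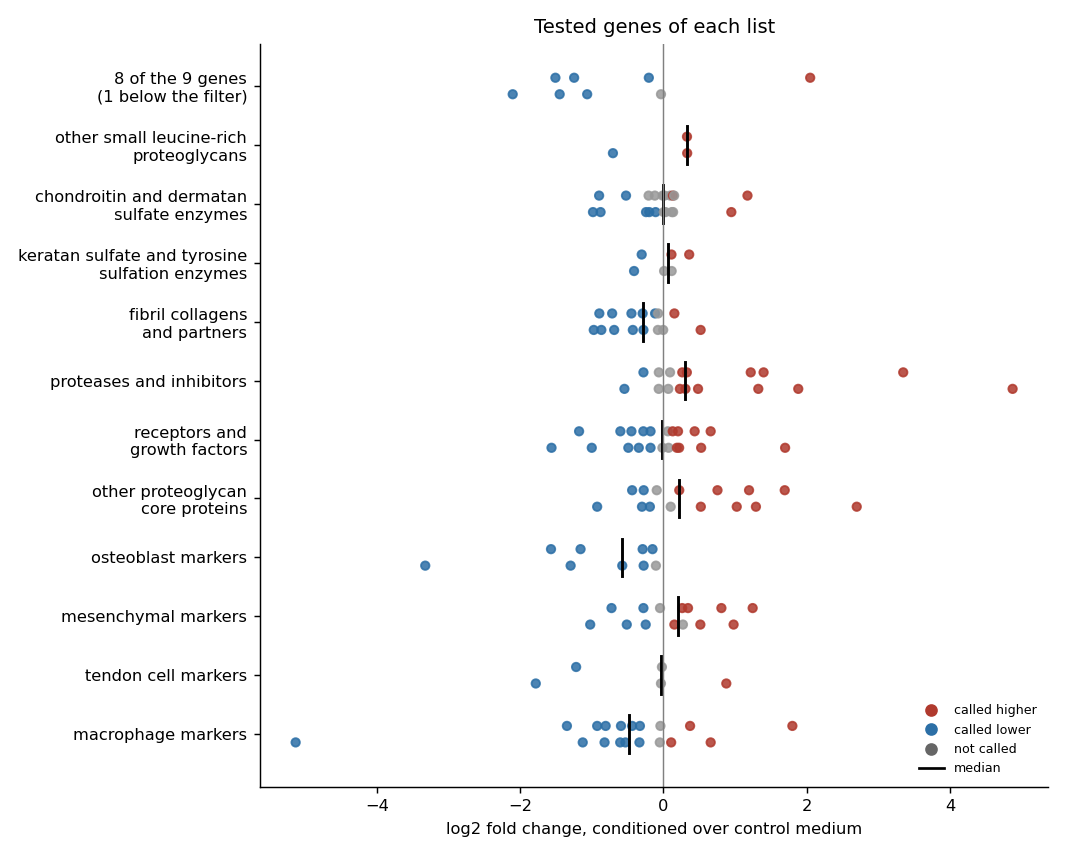
Log2 fold change, conditioned over control medium, of each tested gene in the lists named at the left; red was called higher, blue lower and grey not called by edgeR, and black lines are list medians, left out for the 9 genes. The fibril collagens and partners lie mostly below 0 with a median of -0.29. The list of proteases and inhibitors lies mostly above 0 with a median of 0.31.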

How the data were processed

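RNA of 3 samples per group was measured by paired-end sequencing of poly(A) libraries with reads of 150 bases, per the labels' protocols. Per the submitters' processing notes, HISAT2 2.0.1, HTSeq 0.6.1, cutadapt 1.9.1 and DESeq2 were among the tools and the build was GRCm39. The counts deposited by the authors were whole numbers per gene, not normalized. The FPKM deposited by the authors equalled the count over exonic length and over the sample's total within 0.006 in 100% of values. No source used here states a strand setting for counting, so sense and antisense reads cannot be told apart. Depth lay between 18661629 and 21329475 counts per sample.

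Genes with a mean of at least 1 FPKM over the 6 samples were tested with edgeR 4.0.16 (R 4.3.3; TMM factors, group as the single term, Benjamini-Hochberg over 12153 genes). SE was the unshrunk log2 fold change divided by √F. No replicate pair agreed within sampling noise (chi-square per degree of freedom 2.24 to 9.03). DESeq2 1.42.0 and limma 3.58.1 were alternatives, with other scalings and filters, a replicate block and each sample left out. The test was checked on simulated data in which far fewer genes changed than were called here. That check does not cover so broad a difference. The 9 genes, the 16 gene lists and the motifs were chosen with earlier results of these data known. Genes named are all of the family, up to 3 called members per list with the largest change, called members that moved against most of their list, nearest neighbours and genes of like pattern; some further list members were named after their values were seen. Endothelial markers (1 of 5 tested called higher, 1 lower), adipocyte markers (1 of 3 higher, 2 lower), smooth muscle markers (0 of 6 higher, 4 lower) and liver and hepatoma markers (1 of 2 higher, 0 lower) were also counted. Protein sequences were not used here.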

Additional observations from a re-analysis of the deposited data

How the results depend on the processing

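All 14 alternatives kept the direction and the side of the threshold of each of the 8 tested members. Calls among the 9 genes numbered 7, or 8 without a filter on low values and with filterByExpr, where Lum was tested and called. The count over all genes lay between 4769 and 6421, against 5578, and between 4769 and 5873 when 1 sample was left out. Without TMM factors 46.5% of calls were higher, and with limma on log2(FPKM + 1) 47.0%, against 50.1%. Of 67 called genes followed over the alternatives besides the members, 8 lost their call under at least 1 alternative. Mkx, Scp2, Fn1 and Lyz2 were not followed. Calls among keratan sulfate and tyrosine sulfation enzymes lay between 2 and 4 when 1 sample was left out. Relative to the median of 14 mesenchymal stromal markers (0.21), the log2 fold changes were 1.84 for Dcn, -0.41 for Bgn, -2.31 for Aspn, -1.66 for Fmod, -1.45 for Prelp, -1.72 for Omd, -0.24 for Ogn and -1.27 for Podn.

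As shares of counts, which weigh long genes more, the family in conditioned medium was 71.6% Bgn, 19.0% Ogn, 4.68% Fmod, 1.82% Aspn, 1.94% Prelp, 0.308% Omd, 0.441% Dcn, 0.144% Podn and 0.0452% Lum. In control medium it was 64.2% Bgn, 15.1% Ogn, 9.95% Fmod, 6.11% Aspn, 3.59% Prelp, 0.683% Omd, 0.234% Podn, 0.0824% Dcn and 0.0108% Lum.

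With the replicate number as a block, 5662 genes were called. The pairing was not borne out: deviations from group means of same-numbered samples correlated at -0.0056, 0.019 and 0.038. Conditioned medium sample 1 correlated best with control medium sample 2 (0.027), while samples 2 and 3 correlated best with their own number. All of these correlations were very weak, so no match is read from them. The block changed no call of a member. Depth limits Lum, with 24 control counts, and the other family members below the filter.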
